A study of Mus musculus with 12 samples.

Results

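The trace amine-associated receptor genes Taar6, Taar7a, Taar7b, Taar7d, Taar7e, Taar7f, Taar8a, Taar8b and Taar8c were followed in the olfactory mucosa of mice. They were chosen by name, as the Taar6, Taar7 and Taar8 receptors of the cluster, and all 9 were found among the 44930 genes measured. RNA from this tissue, where odor-detecting sensory neurons lie among supporting cells, was sequenced after depletion of ribosomal RNA. The 6 eB deletion animals lacked 1155 bp of chromosome 7 (102847692 to 102848846), an enhancer element of the class I odorant receptor genes, and the other 6 animals were wildtype. All 12 were male, 30 days old and of a mixed 129S6;C57BL/6J background. The labels do not say whether the deletion was heterozygous or homozygous, nor whether animals of the groups were littermates.

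Trace amine-associated receptors are G protein-coupled receptors that detect volatile amines, and they form the second family of main olfactory receptors beside the odorant receptors. Each olfactory sensory neuron expresses 1 receptor gene, and the neurons that choose a Taar gene use the same transduction cascade as other canonical olfactory neurons. Taar1 is the member of the family that is not an olfactory receptor. The Taar7 and Taar8 genes arose by recent duplication. Most Taar genes are used by neurons of the dorsal olfactory epithelium, whereas Taar6 and some Taar7 genes are also used ventrally. Their choice has been tied to enhancers inside the Taar cluster itself, which lies on another chromosome than eB. Among the receptors described here, Taar7f is known to respond to N-methylpiperidine, a cyclic amine.

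The 9 genes lie side by side on chromosome 10 (GRCm38, GENCODE M21), within a cluster of 16 annotated Taar genes that spans 23920356 to 24109534, or 189 kb. Taar6 (ENSMUSG00000045111.5) lies at 23984609 to 23985646 on the minus strand. Taar7a (ENSMUSG00000095647.1) follows at 23992405 to 23993481, also on the minus strand. On the plus strand come Taar7b (ENSMUSG00000095171.1, 23999939 to 24001015), Taar7d (ENSMUSG00000095569.1, 24027222 to 24028298), Taar7e (ENSMUSG00000100689.1, 24037614 to 24038690) and Taar7f (ENSMUSG00000100950.1, 24049510 to 24050586). Taar8a (ENSMUSG00000096442.1, 24076500 to 24077534) is on the plus strand. Taar8b (ENSMUSG00000100186.1, 24091260 to 24092294) and Taar8c (ENSMUSG00000100004.1, 24100878 to 24101912) are on the minus strand. Each of the 9 is annotated as 1 exon that runs from its start codon to its stop codon, with no UTR, so that only coding reads can have been counted if this annotation was used. The coding length is 1038 bases for Taar6, 1077 bases for each Taar7 gene and 1035 bases for each Taar8 gene.

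The coding sequences show how close the copies are. Within Taar7, the 10 pairs were identical at 91.7% to 95.4% of coding bases and at 88.5% to 93.9% of residues. Within Taar8, the 3 pairs were identical at 96.6% to 98.1% of bases, with Taar8a and Taar8c separated by 20 substitutions. Pairs from different subfamilies were identical at 67.5% to 78.3% of bases, and the highest of these values, 78.3%, was that of Taar6 and Taar8c. The 5 Taar7 genes differed from one another at 140 of 1077 positions, and these positions were not spread evenly. The first 60 coding bases held 31 of them, and no stretch of that length held more; they are shown as the stretch in which the copies differ most, although Taar7d and Taar7e are nearly alike there. Capitals mark positions at which the 5 genes are not all alike, and the sequences (GENCODE M21) run 5′ to 3′ on the coding strand.
Taar7a: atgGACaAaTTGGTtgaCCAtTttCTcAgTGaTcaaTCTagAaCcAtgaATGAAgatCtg
Taar7b: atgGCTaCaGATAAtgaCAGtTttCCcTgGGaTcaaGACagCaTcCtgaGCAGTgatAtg
Taar7d: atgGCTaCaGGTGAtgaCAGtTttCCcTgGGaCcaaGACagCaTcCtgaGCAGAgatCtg
Taar7e: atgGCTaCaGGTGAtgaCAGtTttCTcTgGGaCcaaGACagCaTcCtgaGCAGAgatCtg
Taar7f: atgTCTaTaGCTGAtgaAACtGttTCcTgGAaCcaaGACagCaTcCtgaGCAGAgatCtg
These stretches lie at chr10:23993422-23993481 (Taar7a, minus strand), chr10:23999939-23999998 (Taar7b), chr10:24027222-24027281 (Taar7d), chr10:24037614-24037673 (Taar7e) and chr10:24049510-24049569 (Taar7f). Elsewhere the same genes share 77 bases in a row, coding bases 688 to 764. The first 60 of these, at chr10:24000626-24000685 in Taar7b, are shown because a read inside them fits every Taar7 copy.
Taar7a, Taar7b, Taar7d, Taar7e and Taar7f: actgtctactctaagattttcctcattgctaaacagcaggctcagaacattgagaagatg

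The 3 Taar8 genes differed at 40 of 1035 positions, with up to 126 bases in a row without a difference. Their most variable 60 bases, coding bases 964 to 1023 near the end of the receptor, held 11 of the 40, marked by capitals.
Taar8a: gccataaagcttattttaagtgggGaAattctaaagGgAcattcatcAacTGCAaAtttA
Taar8b: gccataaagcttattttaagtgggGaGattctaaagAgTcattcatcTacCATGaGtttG
Taar8c: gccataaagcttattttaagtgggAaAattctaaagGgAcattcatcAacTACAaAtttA
They lie at chr10:24077463-24077522 (Taar8a, plus strand), chr10:24091272-24091331 (Taar8b, minus strand) and chr10:24100890-24100949 (Taar8c, minus strand).

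How much of each gene is its own was counted as the share of all windows of a fixed length that occur in no transcript of another gene, on either strand and without mismatches. For windows of 50 bases this share was 99.9% in Taar6, between 46.1% (Taar7e) and 70.5% (Taar7d) in the Taar7 genes, and only 27.5% in Taar8c. For windows of 100 bases it was 100% in Taar6, from 66.8% in Taar7e to 90.4% in Taar7a, and 47.4% in Taar8c. Every gene that shared a window of 100 bases with a Taar7 gene was another Taar7 gene or the pseudogene Taar7c-ps, and Taar8 genes shared such windows only with each other. At 50 bases the subfamilies were not fully apart. Taar8b and Taar8c shared windows of that length with Taar7a, Taar7b, Taar7e, Taar7f and Taar7c-ps, and Taar6 shared 1 with Taar8a. Neither the read length nor the treatment of reads that fit several genes is given in the sources used here, so that values of single Taar7 and Taar8 genes are uncertain, while nearly all of Taar6 is its own.

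**Figure D1:**
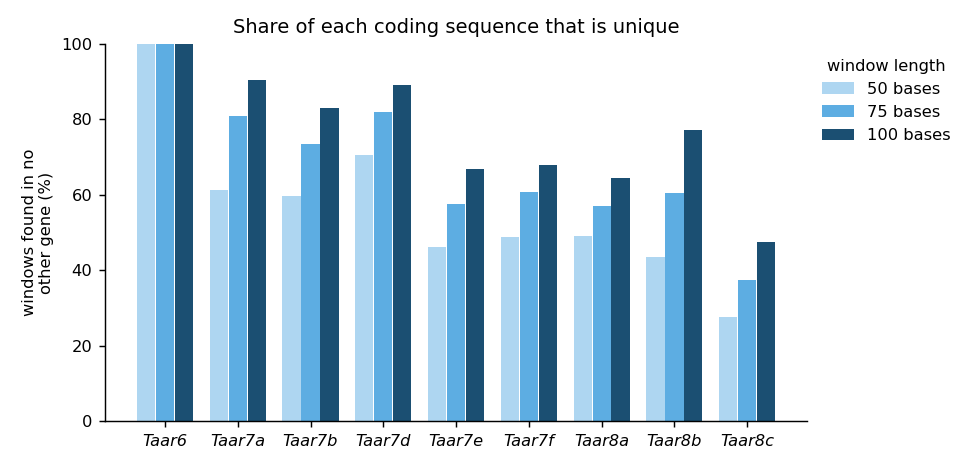
Percentage of windows of 50, 75 and 100 coding bases (bars, vertical axis) that occur in no other gene's transcripts, for each of the 9 genes (horizontal axis). Taar6 is at or near 100% at each length, and Taar8c is lowest, at 27.5% for 50 bases and 47.4% for 100 bases.

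The libraries held 13152662 to 23059835 reads on genes, of which 878 to 1948 per library fell on the 9 genes. In 4 libraries the predicted gene Gm10800 took over 0.1% of reads (eB deletion 1, eB deletion 4, wildtype 2 and wildtype 5), with 2.38% in eB deletion 4 and 11.02% in wildtype 2. These 2 libraries also had reads on more genes, 39082 in eB deletion 4 and 42505 in wildtype 2, than the other 10. Values without these libraries are given below for the genes whose value or unadjusted p they moved most. The tissue carried its defining transcripts: the mature neuron marker Omp averaged 63952 normalized counts. Of 8 mature neuron markers, 0 passed in either direction, with a median log2 fold change of 0.05 between deletion and wildtype animals. For the 5 immature neuron markers the median was -0.05, and again 0 passed. Medians were 0.07 for 5 sustentacular cell markers and -0.05 for 3 horizontal basal cell markers, and 0 of these passed. In the same limma fit 0 of 19100 genes passed an adjusted p of 0.05 (0%). The counts of markers that passed therefore do not set them apart from other genes.

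Levels were compared between genes as RPM (reads scaled to a library of 1000000 reads on genes) divided by the coding length in kb, over all 12 animals. The full coding length was used, although the share of windows of 50 bases unique to a gene ran from 99.9% in Taar6 to 27.5% in Taar8c. How reads that fit several genes were treated is not given, so the order of levels below depends on it, and its part was not tested. Taar7b was highest at 18.9 ± 5.4, followed by Taar6 at 17.4 ± 2.98 and Taar7d at 16.4 ± 3.10 (SD, n = 12). These 3 did not differ beyond their spread, since Taar7b exceeded Taar6 in 7 of 12 animals and Taar6 exceeded Taar7d in 7 of 12. Below them came Taar7a at 6.49 ± 1.6, lower than Taar7d in all 12 animals and with no overlap between the ranges. Taar7f, at 4.08 ± 1.23, was lower than Taar7a in all 12 animals, although the ranges of both overlapped. Taar7f and Taar7e (3.73 ± 1.16) did not differ beyond their spread, with Taar7f higher in 8 of 12. Taar8c, at 0.836 ± 0.430, was lower than Taar7e in every animal without overlap, and Taar8a (0.236 ± 0.201) and Taar8b (0.191 ± 0.140) were lowest, with Taar8a above Taar8b in 5 of 12 animals. Within the 9 genes, Taar7 genes took 72.7% ± 2.0 of reads in deletion and 73.6% ± 3.2 in wildtype animals (SD, n = 6 each). Taar6 took 25.9% ± 1.98 of reads in deletion and 24.1% ± 3.02 in wildtype animals. Taar8 genes took 1.36% ± 0.49 in deletion and 2.27% ± 0.68 in wildtype animals. In bulk tissue, fewer neurons that express a receptor and less RNA per neuron cannot be told apart.

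**Figure D2:**
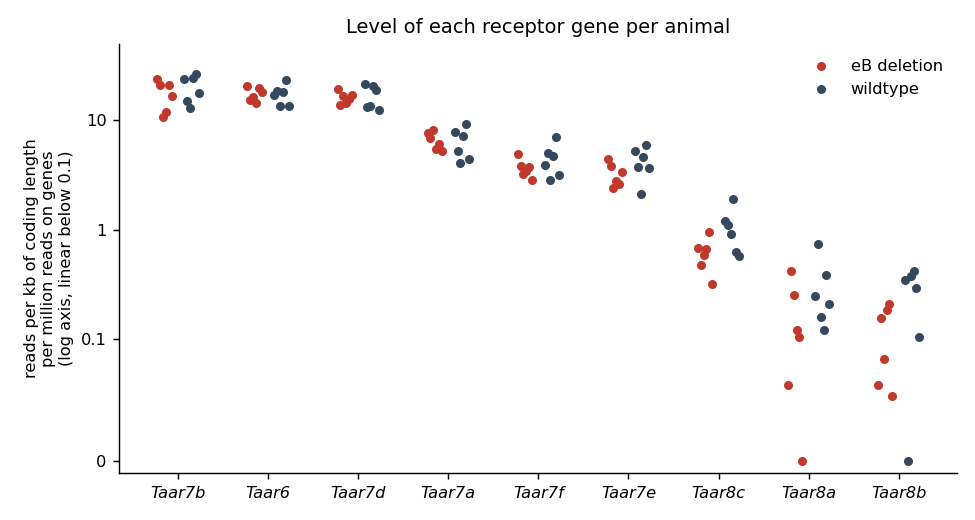
RPM per kb of coding length (vertical axis, logarithmic above 0.1 and linear below) for each gene (horizontal axis), with 1 point per animal, eB deletion left and wildtype right. Taar7b, Taar6 and Taar7d form the highest group, near 16 to 19 on average, and Taar8a and Taar8b the lowest, with 1 library at 0 in each.

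The question for these genes was whether loss of a class I enhancer on chromosome 7 changed receptors of another family on chromosome 10. None of the 7 members that could be tested passed. In limma-trend over 19100 genes, 0 genes passed an adjusted p of 0.05 (0% of genes), and 1 of the 7 members, Taar8c, had an unadjusted p under 0.05, against 5.64% of all genes in either direction and 2.82% lower in the deletion. On the reads themselves, edgeR called 0 members (0% of all genes) and gave an unadjusted p under 0.05 to Taar8c alone (5.86% of all genes). DESeq2 also called 0 members (0.0524% of all genes) and gave an unadjusted p under 0.05 to Taar8c alone (4.92% of all genes). Of the 7 tested members, 6 had values below 0 in the deletion (5 with TMM or total-read scaling, where Taar6 was above 0), against 48.3% of all genes tested and 59.8% of the 1066 odorant receptor genes tested. Their median log2 fold change was -0.23, beside 0.00 over all genes and -0.06 over odorant receptor genes. These 7 passed the filter on low values (at least 10 normalized counts in 6 or more animals), and Taar8a and Taar8b did not.

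Taar6, the member whose reads are least shared with other genes, had 258, 308 and 378 normalized counts as the lowest, median and highest of the 6 deletion animals, against 242, 324 and 427 in the 6 wildtype animals. All deletion animals lay within the wildtype range, and 3 of 6 deletion animals lay below the wildtype mean. Means were 316 ± 48.6 in deletion and 321 ± 71.7 in wildtype animals (SD, n = 6 each). The log2 fold change was -0.01 ± 0.14 (SE), with a 95% interval of -0.29 to 0.28, which spans a level 18.4% lower to 21.4% higher (limma adjusted p = 0.999). Its sign depended on the libraries and on the scaling: it was 0.16 when the 4 libraries rich in Gm10800 were left out, and 0.02 with total reads as library size.

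Among the Taar7 genes, Taar7b and Taar7d carried most of the reads. Taar7b had 198, 356 and 457 normalized counts as the lowest, median and highest of the deletion animals, against 244, 394 and 503 in wildtype animals. The lowest values, in eB deletion 3 and eB deletion 4, lay under every wildtype animal, while the other 4 lay within the wildtype range. The log2 fold change was -0.23 ± 0.21 (SE; limma adjusted p = 0.946). Single animals moved it, to -0.095 without eB deletion 3 and to -0.35 without wildtype 3. Taar7d had 258, 303 and 367 normalized counts in deletion animals, against 230, 316 and 413 in wildtype animals, and all 6 deletion animals lay inside the wildtype range (-0.04 ± 0.14, SE; limma adjusted p = 0.989).

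Taar7b and Taar7d did not keep a fixed ratio from animal to animal. The ratio of Taar7b to Taar7d ran from 0.651 to 1.54 over the deletion animals, with a mean of 1.09 ± 0.33, and from 0.969 to 1.42 over the wildtype animals, with a mean of 1.21 ± 0.17 (SD, n = 6 each). In eB deletion 3 it rested on 268 reads of Taar7b and 412 of Taar7d, whereas eB deletion 2 had 416 and 271. The spread was wider in deletion animals, a difference in spread that was not tested. Both genes are identical at 94.0% of coding bases, so the ratio also depends on how shared reads were assigned.

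Taar7a was the only tested member with a value above 0, apart from Taar6 with TMM or total-read scaling. It had 99.8, 123 and 151 normalized counts as the lowest, median and highest of the deletion animals, against 77.2, 122 and 176 in wildtype animals (0.08 ± 0.19, SE; limma adjusted p = 0.984), and all deletion animals lay within the wildtype range. The value became -0.04 without wildtype 3 and -0.02 without wildtype 6, and it was 0.20 without wildtype 5. Taar7e had 44.3, 57.4 and 84.2 normalized counts in deletion animals, against 39.6, 81.5 and 113 in wildtype animals, with 5 of 6 deletion animals below the wildtype mean (-0.36 ± 0.22, SE; limma adjusted p = 0.900). Taar7f, the receptor for N-methylpiperidine, had 53.7, 67.6 and 94.4 normalized counts in deletion animals, against 53.1, 82.4 and 136 in wildtype animals (-0.26 ± 0.20, SE; limma adjusted p = 0.932). For both, the deletion values lay inside the wildtype range. Taar7f was at -0.12 without wildtype 5 and at -0.39 without wildtype 3, and at -0.091 without the 4 libraries rich in Gm10800. Taar7e was at -0.55 without wildtype 3.

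**Figure D3:**
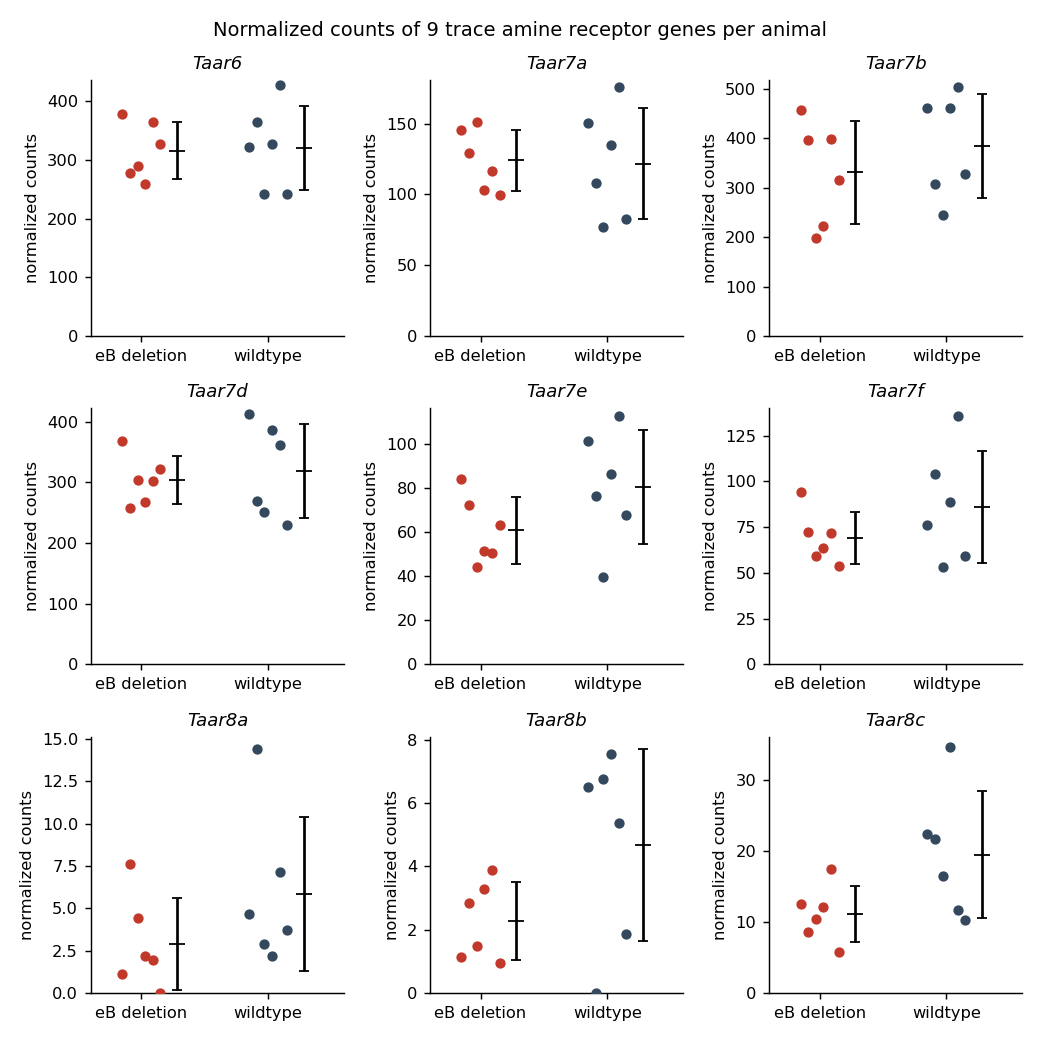
Normalized counts (vertical axis, from 0, its own scale in each panel) of each of the 9 genes in 6 eB deletion animals (left) and 6 wildtype animals (right), with 1 point per animal and bars for the mean and SD. The groups overlap in every panel, and the lowest deletion animals lie below all wildtype animals in Taar7b, Taar8a and Taar8c.

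Taar8c differed most among the tested members, on few reads. Deletion animals had 6, 11 and 18 reads as the lowest, median and highest, against 11, 16 and 32 reads in wildtype animals. As normalized counts these were 5.76, 11.2 and 17.4 in deletion animals, against 10.2, 19.0 and 34.6 in wildtype animals. The groups overlapped, with all 6 deletion animals under the wildtype mean and 2 of them under the lowest wildtype animal. Means were 11.1 ± 3.96 in deletion and 19.5 ± 8.93 in wildtype animals (SD, n = 6 each). The log2 fold change was -0.71 ± 0.31 (SE), with a 95% interval of -1.36 to -0.06 (limma unadjusted p = 0.033, limma adjusted p = 0.858). It passed the filter with 4 deletion and 6 wildtype animals at 10 or more. The unadjusted p rose above 0.05 when eB deletion 2, 3 or 6 was left out, or wildtype 1, 2 or 4, with 0.096 at most (without wildtype 4). It was 0.063 without eB deletion 4 and wildtype 2 together. Without the 4 libraries rich in Gm10800 the log2 fold change of Taar8c was -0.89 ± 0.39 (SE; limma unadjusted p = 0.043, limma adjusted p = 0.848).

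Taar8a and Taar8b had few reads and did not pass the filter on low values. In a limma fit with no filter, Taar8a was at -0.91 ± 0.54 and Taar8b at -0.57 ± 0.54 (SE; limma adjusted p = 1.00 for both). The 6 deletion libraries together held 19 reads of Taar8a, or 0.174 RPM (95% exact binomial interval 0.105 to 0.272), against 32 reads or 0.305 RPM (0.209 to 0.431) in the 6 wildtype libraries. Of the 32 wildtype reads, 10 were in wildtype 2. Without it the wildtype libraries held 22 reads, or 0.240 RPM. Taar8b had 14 reads in deletion libraries, or 0.128 RPM (0.070 to 0.215), against 29 reads or 0.276 RPM (0.185 to 0.397) in wildtype libraries. Leaving out wildtype 2 raised this wildtype value to 0.316 RPM (0.212 to 0.454), whereas it lowered that of Taar8a. Taar8a had no read in eB deletion 6, where 3 reads would correspond to 0.165 RPM, and Taar8b had none in wildtype 2 (0.228 RPM). Taar1 and the pseudogene Taar7c-ps show what the cluster's least used genes look like: Taar1 had 2 reads in deletion and 2 in wildtype libraries, and Taar7c-ps had 9 in deletion and 13 in wildtype libraries. Both wildtype reads of Taar1 were in wildtype 2, the library richest in Gm10800, and the part of that library's extra signal in the Taar8a value was not tested. The intervals cover counting error only, not differences between animals.

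The other Taar genes with enough reads were set beside these. All 5 (Taar2, Taar3, Taar4, Taar5 and Taar9) had values below 0, with a median of -0.18, and 0 passed. Below 0 were also 48.3% of all genes tested and 59.8% of the odorant receptor genes tested. Taar5, the trimethylamine receptor, was at -0.56 ± 0.22 (SE; limma adjusted p = 0.850). Taar9 was at -0.38 ± 0.18 (adjusted p = 0.878 in limma), Taar3 at -0.18 ± 0.21, Taar2 at -0.12 ± 0.21 and Taar4, which detects phenylethylamine, at -0.09 ± 0.17. Taar5 and Taar9 had an unadjusted p under 0.05 (limma, 0.022 and 0.049), as did 5.64% of all genes tested and 12.2% of odorant receptor genes tested. The unadjusted p of Taar9 in limma was above 0.05 with TMM (0.051) or total-read scaling (0.055). It was also above 0.05 when any of 8 single animals was left out (0.127 without wildtype 4), and without eB deletion 4 and wildtype 2 (0.128). It was lower without wildtype 3 (0.0080, limma adjusted p = 0.868) and with replicate number as a block (0.0056, limma adjusted p = 0.739). On the recovered reads the unadjusted p of Taar9 was 0.028 in edgeR (adjusted 0.836) and 0.029 in DESeq2 (adjusted 0.952). The unadjusted p of Taar5 was above 0.05 without eB deletion 6 (0.059), wildtype 1 (0.059) or wildtype 2 (0.051), and without the 4 libraries rich in Gm10800 (0.064). It was lower without wildtype 6 (0.0035, limma adjusted p = 0.727) and with that block (0.010, limma adjusted p = 0.739). For Taar5 edgeR gave an unadjusted p of 0.018 (adjusted 0.826) and DESeq2 0.026 (adjusted 0.921). The 9 genes described here took 66.0% ± 2.3 of all Taar reads in deletion and 63.9% ± 3.1 in wildtype animals (SD, n = 6 each). Summed over the 9 genes, deletion animals had 70.0 ± 10.6 RPM (57.0 to 87.6) and wildtype animals 75.5 ± 18.0 RPM (53.7 to 98.3; SD, n = 6 each), a difference of -7.32% of the wildtype mean. This was -1.38% without wildtype 5 and -12.4% without wildtype 3.

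**Figure D4:**
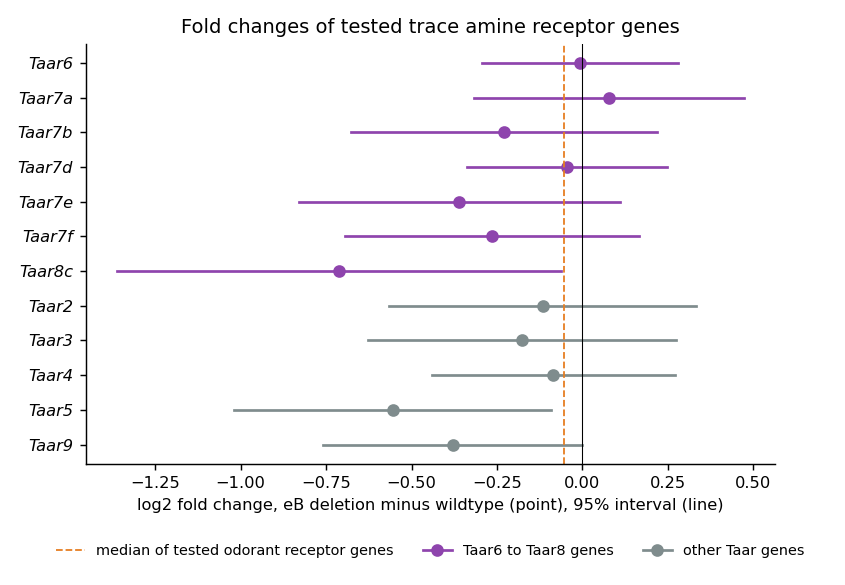
Log2 fold change of deletion minus wildtype animals (horizontal axis) for the 7 tested Taar6 to Taar8 genes and the 5 other tested Taar genes (vertical axis), with points for the estimate, lines for the 95% interval and a dashed line at the odorant receptor median of -0.06. Taar7a alone lies above 0 (with TMM or total-read scaling, not drawn, Taar6 does too), and among the 7 only the interval of Taar8c (-1.36 to -0.06) leaves out 0.

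In the authors' deposited table, where log2 fold changes carry shrinkage and a positive sign means a higher level in wildtype, Taar8c stood at 0.11 with a p of 0.042 and an adjusted p of 0.999. The authors' deposited table puts Taar7e at 0.11, Taar7f at 0.10, Taar7b at 0.07, Taar7d at 0.04, Taar6 at 0.01 and Taar7a at -0.01. For Taar8a and Taar8b the authors' deposited table gives no adjusted p.

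The spread between animals of 1 genotype was wide. Animals were ranked from 1 (the lowest) to 12 in each of the 6 most abundant members. Among deletion animals, eB deletion 1 ranked between 9 and 11 in all 6, and eB deletion 4 between 2 and 5. The least uniform animal was eB deletion 3, at rank 11 for Taar7a but rank 1 for Taar7b. Among wildtype animals, wildtype 5 ranked 12 in 5 genes and 9 in Taar7d, whereas wildtype 3 ranked between 1 and 3 in all 6. The sum over the 9 genes was likewise highest in wildtype 5 (98.3 RPM) and lowest in wildtype 3 (53.7 RPM).

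**Figure D5:**
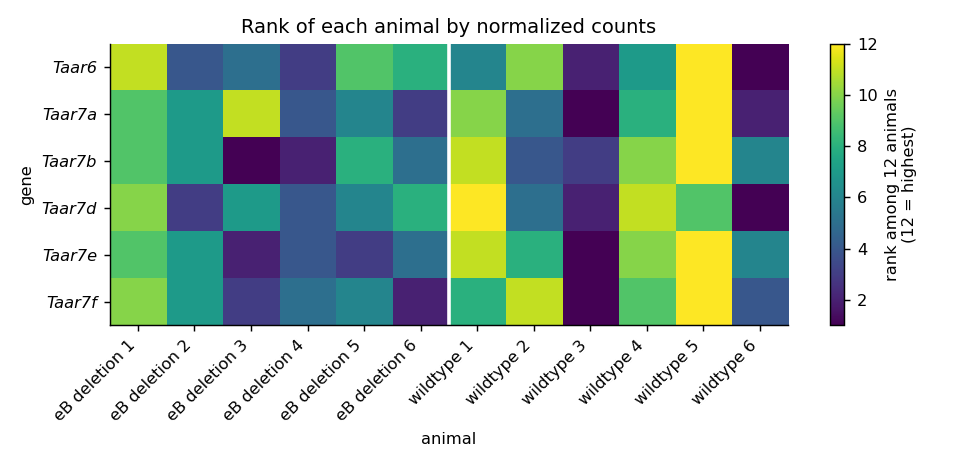
Rank of each animal (horizontal axis, eB deletion left, wildtype right of the white line) by normalized counts of the 6 most abundant genes (vertical axis), coloured from 1 (lowest) to 12 (highest). Wildtype 5 is at 12 in 5 of 6 genes, and wildtype 3 is at 3 or below in all.

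Members were also compared with each other. Over the 12 animals, log2 values were positively correlated in all 21 pairs of tested members, with Pearson r from 0.14 to 0.83. The 15 pairs without Taar8c lay between 0.49 and 0.83, and the 6 pairs with it between 0.14 and 0.38. After Benjamini-Hochberg adjustment over the 21 pairs, 4 passed in a permutation test by Pearson r and 2 by Spearman rho. No share over pairs of other genes was computed beside these counts, so they do not set the members apart from other genes. Taar7 genes share windows of 50 bases with each other, and all but Taar7d share some with Taar8c. The part of shared reads in these correlations was not tested. Taar7b and Taar7e passed by both (r = 0.83, permutation p = 0.00089, adjusted 0.017; rho = 0.83, permutation p = 0.0016, adjusted 0.017). Their r was 0.80 without the 2 animals farthest from the median of the first gene named, a choice made anew for each pair. Taar7e and Taar7f also passed by both (r = 0.77, permutation p = 0.0032, adjusted 0.022; rho = 0.85, permutation p = 0.0011, adjusted 0.017), with r of 0.61 after the same step. Taar6 and Taar7f, which share no window of 50 bases, passed by Pearson r (0.80, permutation p = 0.0016, adjusted 0.017) but not by rho (0.71, permutation p = 0.012, adjusted 0.064), with r of 0.75 after that step. Taar7a and Taar7d likewise passed only by Pearson r (0.75, permutation p = 0.0060, adjusted 0.031; rho = 0.71, permutation p = 0.012, adjusted 0.064), with r of 0.60 after that step. Over all 21 pairs the median r was 0.36 within deletion and 0.74 within wildtype animals, and Taar7e and Taar8c had an r of -0.25 within deletion animals. Within deletion animals r was 0.77, 0.64, 0.50 and 0.31 for these 4 pairs in the order given, against 0.93, 0.78, 0.98 and 0.90 within wildtype animals. In the 8 libraries with little Gm10800 it was 0.82, 0.69, 0.52 and 0.70.

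For Taar7b, the member of highest level, the 3 genes of 19099 whose log2 values followed it most closely, after subtracting each genotype's mean, were Eml5 (r = 0.93), Hist2h2ac (r = 0.92) and Mpv17l (r = 0.92), over 12 animals. The nearest Taar gene was Taar7e, at r = 0.82 and position 21 in that order, and Taar2 was at r = 0.75 and position 105. The other members stood lower, at position 394 (Taar6), 540 (Taar7f), 624 (Taar7d), 1026 (Taar7a) and 6727 (Taar8c), so that many genes outside the family followed Taar7b more closely than they did. These values are descriptive, since the closest of so many genes is close by selection.

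Genes around the cluster and along the receptors' pathway were described for comparison. Of 5 tested protein-coding genes within 250 kb of the cluster, 0 passed and 3 had values below 0: Moxd1, 114 kb beyond the cluster, was at -0.17 ± 0.07 (SE; limma adjusted p = 0.850), Vnn1 at -0.19 ± 0.21 and Slc18b1 at -0.02 ± 0.07. Stx7, a SNARE protein gene, was at 0.04 ± 0.05 and the ribosomal protein gene Rps12 at 0.03 ± 0.06. Of 11 genes of the odor transduction cascade, 0 passed, with a median of 0.04. The most abundant of them were the G protein gene Gnal (0.06 ± 0.08, SE), Gnb1 (0.02 ± 0.07) and Ric8b (0.13 ± 0.07). Of 13 genes of receptor trafficking and choice, 0 passed, with a median of 0.03, among them the receptor transporter gene Rtp1 (0.09 ± 0.07, SE), Atf5 (-0.07 ± 0.05) and Ebf2 (0.05 ± 0.06). Zone markers are of interest because Taar genes are used in different zones. Of 4 tested dorsal zone genes 3 had values below 0, with a median of -0.22, among them Nqo1 at -0.35 ± 0.14 (limma adjusted p = 0.850), Msx1, named after its value was seen, at -0.37 ± 0.12 (limma adjusted p = 0.754) and Acsm4 at -0.08 ± 0.09, while Robo2 was at 0.03 ± 0.06. All 5 ventral zone genes had values above 0, with a median of 0.06, and Nfib stood at 0.14 ± 0.06, Nrp2 at 0.15 ± 0.06 and Ncam2 at 0.03 ± 0.07. At an unadjusted p under 0.05 (limma) were 2 of the 4 dorsal genes, both lower in the deletion, and 2 of the 5 ventral genes, both higher. Over all genes tested the share at that p was 5.64%, with 2.82% lower in the deletion. The lists were chosen with earlier results of these data known, and Msx1 is 1 of those 2 dorsal genes. These counts are therefore only descriptive. None of the zone genes passed after adjustment, and the part of zone in the Taar values was not tested.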

How the data were processed

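Reads had been aligned to GRCm38.p6 with STAR 2.6.0 and compared with DESeq2, per the submitters' processing notes. Neither the counting tool, annotation nor strand setting is given in the sources used here. Values deposited for each gene and library are a signal, namely its read count over that library's size factor. In every library 100% of values above 0 came out as whole reads within a relative tolerance of 0.001. That check is loose for genes with many reads, and the recovered values were rounded to whole reads. The authors' deposited log2 fold changes, test statistic (a score) and p-values were read as given.

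The design foresaw raw counts or, for normalized values, limma-trend on log2(value + 1), run in R 4.3.3 with limma 3.58.1, which understates the change of low genes. Genes at 10 or more in at least 6 animals were tested (19100), with Benjamini-Hochberg adjustment over all of them and a threshold of 0.05. edgeR 4.0.16 and DESeq2 1.42.0 were run on the recovered reads; edgeR called 0 genes and DESeq2 10 of 19071 (0.0524%), at unadjusted p under 0.05 in 5.86% and 4.92%. The procedure was run on simulated counts in which genes vary independently, unlike the members here, and no recovery rate is given. Members and lists were chosen with earlier results of these data known. Positions, lengths and coding sequences came from GENCODE M21 (44840 of 44930 genes matched), and identities from Biopython 1.88 global alignments. Correlations used 100000 permutations. All 9 members are named, with the other Taar genes and the tested neighbours within 250 kb. The 3 most abundant tested genes are named for the transduction, trafficking and zone lists. Of the cell type marker lists only Omp is named. No pair of libraries within a group was a duplicate (lowest chi-square per degree of freedom 12.9 over 30 pairs). Labels do not state separate litters, so p-values measure the spread between these animals.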

Additional observations from a re-analysis of the deposited data

How the results depend on the processing

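No member passed an adjusted p of 0.05 with any alternative run: TMM or total-read scaling, filters of none or 50, pseudocounts of 0.5 and 5, edgeR, DESeq2, the replicate block, each animal left out, or the libraries with much Gm10800 left out. The count at an unadjusted p under 0.05 was 1 and became 0 with a minimum of 50, which leaves Taar8c untested, and 0 when eB deletion 4 and wildtype 2, both over 1% on Gm10800, were left out. It was 1 without the 4 libraries over 0.1% on Gm10800. It ran from 0 to 2 when 1 animal was left out (2 without wildtype 3, where Taar7e joined Taar8c). Members below 0 numbered 4 to 7, and the median ran from -0.35 to -0.095 when 1 animal was left out and was -0.091 without 4 libraries over 0.1% on Gm10800. The difference in summed RPM, as a percentage of the wildtype mean, ran from -12.4 to -1.38 when 1 animal was left out.

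Taar6 changed sign to 0.0081 with TMM, 0.020 with total reads, 0.092 without 2 and 0.16 without 4 libraries with Gm10800 reads; the cause was not tested. Leaving out 1 animal gave -0.082 to 0.082 for Taar6, -0.13 to 0.038 for Taar7d and -0.040 to 0.20 for Taar7a, with changes of sign in each. Taar7b, Taar7e, Taar7f and Taar8c kept values below 0 in every fit. The labels do not say whether replicate numbers pair animals. Over all genes tested, correlations of same-numbered animals ran from -0.12 to 0.16, with 0 of 6 animals closest to their own number. These correlations cannot settle pairing for the Taar genes, as the block lowered the SE of each tested Taar gene. That of Taar7b went from 0.21 to 0.14 and that of Taar9 from 0.18 to 0.11. The limma fit with the block left 1 member at an unadjusted p under 0.05 (Taar8c, 0.027) and 0 called, with Taar7e at 0.059. Depth limits the Taar8 genes: Taar8c had 6 to 32 reads per library, Taar8a 0 to 10 and Taar8b 0 to 7.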
